A study of Mus musculus with 24 samples.

Results

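Immune checkpoint and costimulation genes encode the surface proteins and the enzyme through which tumour and myeloid cells restrain or assist T cells. The 10 described here are the ligands Cd274, Pdcd1lg2, Cd80 and Tnfsf4, the enzyme Ido1, and the receptors Pdcd1, Ctla4, Lag3, Havcr2 and Tigit. They were taken by symbol from a table of 27368 mouse genes. All 10 were found once and all 10 passed the filter on low counts, as did 16560 genes in all.

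A T cell is activated through its receptor together with a costimulatory signal such as CD80 on an antigen-presenting cell binding CD28, or OX40 ligand, the product of Tnfsf4, binding OX40. Inhibitory receptors counter this: PD-1 (Pdcd1) is bound by PD-L1 (Cd274) and PD-L2 (Pdcd1lg2), and CTLA-4 competes with CD28 for CD80. Several of the ligands are induced by interferon gamma, and IDO1 degrades tryptophan to kynurenine, which restrains T cells nearby.

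The libraries came from 24 whole tumours of SCC7, a mouse squamous cell carcinoma line, grown subcutaneously in the flank of female mice of the C3H strain, which is immunocompetent. The mice were 6 to 8 weeks old, and each received about 1000000 cells. NC tumours grew from cells with an empty vector and OE tumours from cells overexpressing miR-21-5p, and treatment began at a tumour volume of about 300 mm³. Tumours were left unirradiated without drug (sham), irradiated with X-rays at 8 Gy a day for 3 days with only the tumour exposed (IR), given the PARP inhibitor olaparib at 50 mg per kg by intraperitoneal injection, or given both. Olaparib was injected 2 h before each irradiation, with 1 further dose on the day after the last. The 8 groups are NC sham, NC IR, NC olaparib, NC IR+olaparib and the same 4 in OE, with 3 tumours each. Each tumour is 1 library. Both tumour types come from the same line, and the labels do not say whether the overexpressing cells are 1 clone or a pool.

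The groups were read from the letters of each tumour's coded identifier, and they conflict with the written labels. The written treatment and batch labels name the same group for 5 tumours and another group for 19, among them another radiation setting for 8. A further label calls the cells of all 24 tumours overexpressing. The coded reading had been preferred in an earlier look at these data because p53 target genes separated by it, so its radiation tests are not independent of that choice. Cdkn1a, the p53-induced cell cycle inhibitor, averaged 690 ± 122 counts per 1000000 counted reads (CPM; SD, n = 12) in the tumours irradiated by code and 268 ± 46.0 in the unirradiated. Grouped by the written labels instead, 0 of the 10 genes passed the test for radiation, against a background of 0.00604% of all genes. The overexpressed microRNA itself was not measured by these libraries, so the NC and OE names have no check.

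Library totals ran from 37099055 to 40004502 counts, close enough that depth differed little between groups. Levels are given as CPM after trimmed-mean (TMM) scaling, with scaling factors of 0.8065 to 1.1143. Replicates may be separate animals, but the labels do not say so for each tumour. Of the squamous markers, Krt5 ranged from 0 to 107 CPM and Krt14 from 0 to 149 CPM over the tumours, with medians of 0.582 and 0.900 CPM in irradiated tumours, so both keratins were near 0 in many tumours. The second OE IR+olaparib tumour stood apart. Its summed fibroblast markers reached 132000 CPM, and it held the lowest levels of Pdcd1, Ido1, Lag3, Havcr2 and Tigit.

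Irradiated tumours carried more transcript of every ligand of the set and of Ido1, whereas the receptors did not move together. With the 4 radiation effects averaged (NC and OE, each with and without olaparib, 12 tumours against 12), 7 of the 10 genes passed at an adjusted p below 0.05 in edgeR's quasi-likelihood test, 6 higher and 1 lower. Of all genes tested 39.1% passed, 21.7% higher and 17.5% lower, so the call itself was common in these tumours. The 4 ligands and Ido1 were all higher, 5 of 5, with a median log2 fold change of 1.34, where the median of all genes was 0.04. Of the 5 receptors, Havcr2 rose, Pdcd1 fell, and Ctla4, Lag3 and Tigit did not pass, with a median of -0.40. In bulk tumour RNA, fewer cells of a type and less RNA per cell cannot be told apart.

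The sequences around the start sites of the genes that moved are shown because they are the stretches in which shared motifs were looked for. Of the 10 genes, 7 had an entry among the RefSeq promoters (GRCm38.p6, 250 bases before to 50 after the start), and the 5 of them that passed the radiation test follow, with capitals marking a motif match. Tnfsf4, Ido1 and Lag3 had no entry. For Cd274 and Cd80 the window lies inside the gene as positioned below, past its first base at 29362107 and 38457430. Positions in those windows are therefore counted from another start than the gene's first base.
Cd274, chr19:29367188-29367487, plus strand: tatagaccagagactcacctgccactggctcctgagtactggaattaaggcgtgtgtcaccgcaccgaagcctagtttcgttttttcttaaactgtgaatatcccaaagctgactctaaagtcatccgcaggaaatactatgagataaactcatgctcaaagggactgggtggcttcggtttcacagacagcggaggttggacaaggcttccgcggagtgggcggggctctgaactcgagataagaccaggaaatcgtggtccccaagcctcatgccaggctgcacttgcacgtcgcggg
Pdcd1lg2, chr19:29410669-29410968, plus strand: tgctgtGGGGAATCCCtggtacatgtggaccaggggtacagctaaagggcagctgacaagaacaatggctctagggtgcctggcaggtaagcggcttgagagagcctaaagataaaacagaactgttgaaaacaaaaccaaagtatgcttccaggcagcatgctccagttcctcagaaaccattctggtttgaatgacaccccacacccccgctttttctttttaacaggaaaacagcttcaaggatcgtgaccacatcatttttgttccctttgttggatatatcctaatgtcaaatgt
Cd80, chr16:38458683-38458982, plus strand: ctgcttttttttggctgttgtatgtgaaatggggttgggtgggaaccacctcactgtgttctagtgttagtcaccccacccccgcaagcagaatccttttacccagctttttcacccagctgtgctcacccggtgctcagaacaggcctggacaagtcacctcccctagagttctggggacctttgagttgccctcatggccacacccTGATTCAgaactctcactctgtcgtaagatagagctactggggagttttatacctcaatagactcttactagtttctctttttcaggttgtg
Havcr2, chr11:46454681-46454980, plus strand: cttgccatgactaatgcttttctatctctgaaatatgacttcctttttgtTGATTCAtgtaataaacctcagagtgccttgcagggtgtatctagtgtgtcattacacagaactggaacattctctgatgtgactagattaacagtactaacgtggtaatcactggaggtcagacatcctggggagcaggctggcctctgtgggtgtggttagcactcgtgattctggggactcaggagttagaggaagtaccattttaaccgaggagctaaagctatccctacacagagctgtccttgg
Pdcd1, chr1:94052504-94052803, minus strand: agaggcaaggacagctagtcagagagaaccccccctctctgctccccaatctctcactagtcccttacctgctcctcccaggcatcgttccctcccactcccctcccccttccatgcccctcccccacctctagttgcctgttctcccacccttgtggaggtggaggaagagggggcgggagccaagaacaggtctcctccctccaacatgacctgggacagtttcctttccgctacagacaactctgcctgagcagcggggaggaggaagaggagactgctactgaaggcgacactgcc
Both strands were searched for an interferon response motif (GAAA, any 2 bases, GAAA), TTCNNNGAA (a STAT motif), TGANTCA, the NF-kB motif and the p53 decamer. TGANTCA is an AP-1-like pattern that allows any base at its centre. It lay at -42 to -36 in Cd80 and at -200 to -194 in Havcr2, both times as TGATTCA. The pattern with any centre base is held by 7.81% of 32851 promoters of this length. The NF-kB motif lay at -244 to -235 in Pdcd1lg2, where the same bases matched on both strands, and is held by 4.51%. No match to the 5 motifs was found in these windows of Cd274 and Pdcd1. The interferon response motif, held by 3.44% of all such promoters, TTCNNNGAA, held by 8.30%, and the p53 decamer, held by 8.36%, were found in none of the 7 windows, which says only that these letters are not there.

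The overexpressed microRNA is shown because its seed defines which messages it could pair with (capitals, bases 2 to 8).
mmu-miR-21a-5p, chr11:86584120-86584141, minus strand: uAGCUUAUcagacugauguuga
The site complementary to this seed, ATAAGCT, was looked for in 1 UTR per gene, the longest 3′ one annotated. It occurred in 0 of the 10 genes, whose UTRs ran from 81 bases in Lag3 to 2683 bases in Cd274, and in 1511 of 21022 genes with a UTR (7.19%). This was a search for letters only.

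Tnfsf4 encodes OX40 ligand, a costimulatory protein of antigen-presenting cells, at chr1:161395438-161418206 (mm10, plus strand). Per kilobase of exon it was the scarcest of the set without radiation. It stood at 0.730, 1.09 and 0.550 CPM in NC sham, 0.471, 0.466 and 1.36 in NC olaparib, 0.299, 0.728 and 0.0249 in OE sham, and 0.575, 0.695 and 0.772 in OE olaparib. After radiation it stood at 2.06, 4.60 and 1.91 CPM in NC IR, 6.08, 6.15 and 6.10 in NC IR+olaparib, 5.13, 4.98 and 3.25 in OE IR, and 4.64, 3.01 and 1.76 in OE IR+olaparib. Every irradiated tumour lay above every unirradiated one, which held for 0.634% of all genes and for no other gene of the 10. The rise was 2.67 ± 0.34 on the log2 scale (SE; edgeR, adjusted p = 4.52e-05). The lowest value is 1 read in the third OE sham tumour and the highest 245 reads, so the unirradiated levels carry wide counting error. The 3 NC IR+olaparib tumours stood above the next group, OE IR, by more than the sum of both groups' SDs, and NC IR stood above NC sham in the same way. The other steps between neighbours in the order of the 8 groups were smaller than that sum.

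Cd80, a ligand of both the activating receptor CD28 and the inhibitory receptor CTLA-4, lies at chr16:38457430-38495958 (plus strand). Its levels without radiation were tight, at 20.7, 17.3 and 19.2 CPM in NC sham, 14.1, 19.0 and 21.9 in NC olaparib, 19.8, 22.6 and 22.8 in OE sham, and 20.9, 21.8 and 26.3 in OE olaparib. With radiation they were 38.2, 46.4 and 23.5 CPM in NC IR, 43.6, 43.4 and 51.8 in NC IR+olaparib, 59.3, 66.3 and 44.9 in OE IR, and 63.9, 28.4 and 89.6 in OE IR+olaparib. The third NC IR tumour was the only irradiated tumour that fell within the unirradiated range. The mean was 49.9 ± 18.0 CPM (SD, n = 12) against 20.5 ± 3.05, a rise of 1.26 ± 0.15 on the log2 scale (SE; edgeR, adjusted p = 2.70e-05), the smallest adjusted p of the set. In the order of group means all 4 irradiated groups stood above all 4 unirradiated ones, but no step between neighbours exceeded the sum of both SDs.

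**Figure D1:**
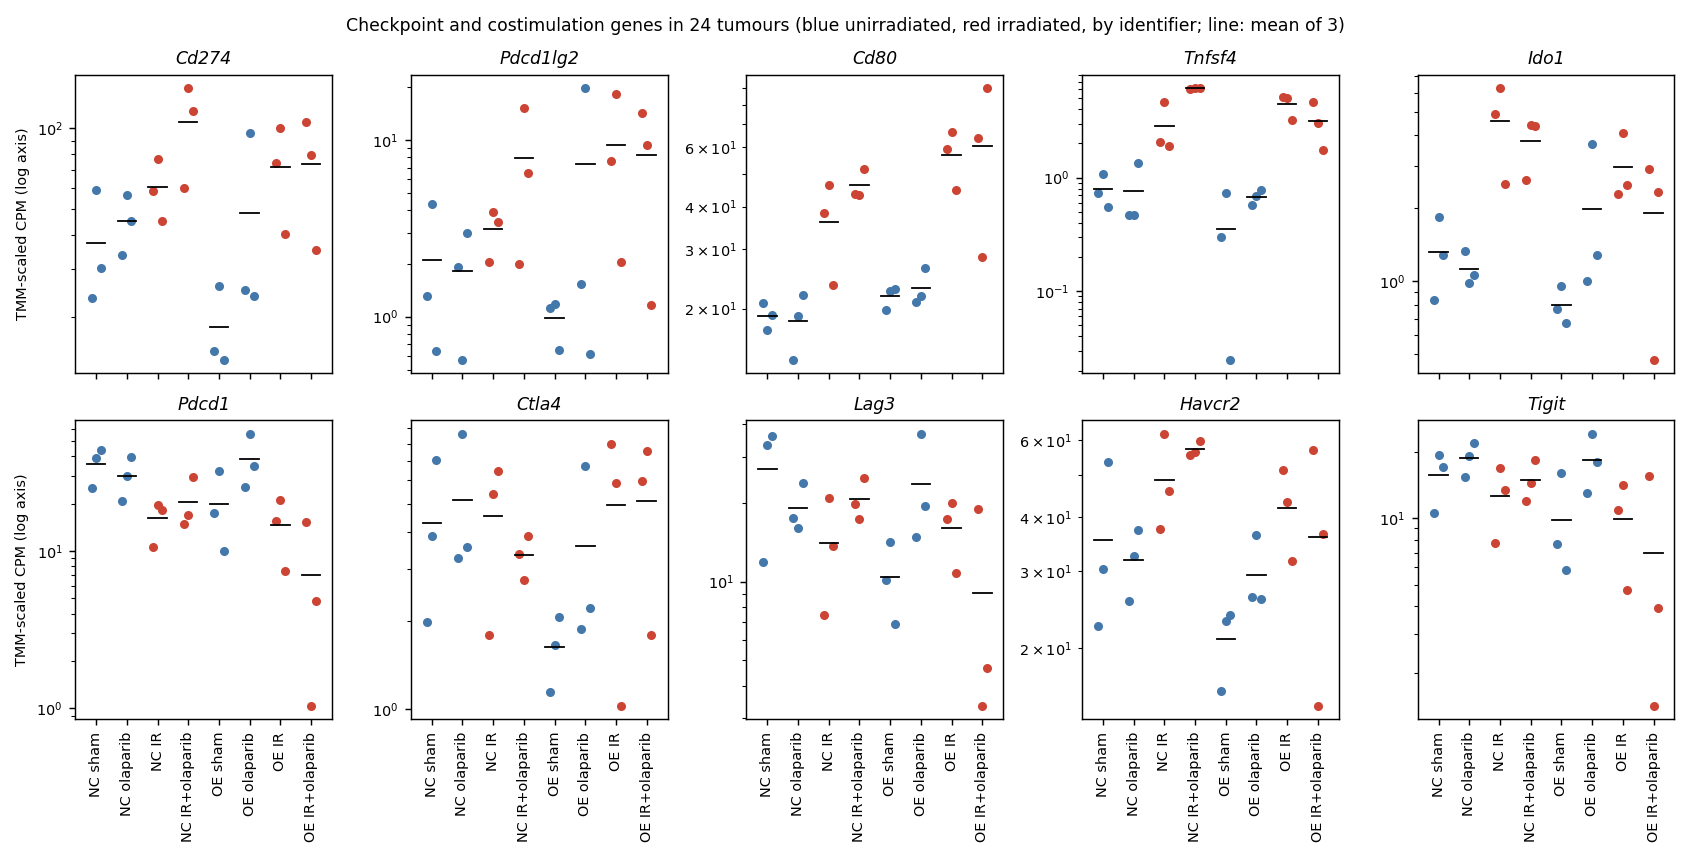
Levels of the 10 genes in each tumour, in TMM-scaled CPM on log axes, by group (x axis), with unirradiated tumours in blue, irradiated in red and a line at each mean of 3. The ranges of irradiated and unirradiated tumours separate fully for Tnfsf4, whose irradiated tumours sit at 1.76 to 6.15 CPM and unirradiated at 0.0249 to 1.36 CPM.

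Cd274 encodes PD-L1, the main ligand of PD-1, at chr19:29362107-29388095 (plus strand), and was the most abundant ligand per kilobase of exon. It measured 23.5, 58.8 and 30.3 CPM in NC sham, 33.8, 56.4 and 45.3 in NC olaparib, 14.9, 25.9 and 13.8 in OE sham, and 25.1, 95.8 and 23.9 in OE olaparib. The irradiated tumours held 58.6, 77.1 and 45.4 CPM in NC IR, 59.8, 141 and 116 in NC IR+olaparib, 74.3, 100.1 and 40.4 in OE IR, and 106, 79.4 and 35.4 in OE IR+olaparib. All 12 irradiated tumours lay above the unirradiated median, but the ranges overlapped, since the second OE olaparib tumour reached 95.8 CPM. The rise was 1.12 ± 0.27 on the log2 scale (SE; edgeR, adjusted p = 0.00362). Between neighbours in the order of groups, from NC IR+olaparib at 105 ± 41.4 CPM (SD, n = 3) to OE sham at 18.2 ± 6.70, no step exceeded the sum of both SDs. Its exons share 511 bases with an antisense transcript on the opposite strand, and since the counting strand is not given in the sources used here, reads of the 2 cannot be told apart there.

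Pdcd1lg2 encodes PD-L2, the second ligand of PD-1, and lies on the same strand close to Cd274, at chr19:29410919-29472927 (plus strand). Its levels ranged from 1.17 to 18.4 CPM with a median of 5.22 in irradiated tumours, and from 0.570 to 19.8 CPM with a median of 1.24 in unirradiated ones. The highest value of all was in the unirradiated second OE olaparib tumour, which was also the highest unirradiated tumour for Cd274. The rise of 1.53 ± 0.56 on the log2 scale (SE; edgeR, adjusted p = 0.0375) passed, but it was lost when any of 13 single libraries was left out, with adjusted p values of up to 0.0818. It has the least secure call of the set.

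Ido1, the interferon-inducible enzyme that starts tryptophan breakdown, lies at chr8:24584133-24596952 (minus strand). It measured 0.834, 1.84 and 1.28 CPM in NC sham, 1.34, 0.984 and 1.06 in NC olaparib, 0.772, 0.954 and 0.672 in OE sham, and 1.00, 3.67 and 1.29 in OE olaparib. With radiation it measured 4.90, 6.27 and 2.53 CPM in NC IR, 2.63, 4.43 and 4.36 in NC IR+olaparib, 2.28, 4.08 and 2.51 in OE IR, and 2.92, 0.475 and 2.33 in OE IR+olaparib. The groups did not overlap in 3 of the 4 settings, and the share of all genes doing so was not counted. They overlapped in OE under olaparib, where the tumour at 0.475 CPM is the one that stood apart. The rise was 1.34 ± 0.28 on the log2 scale (SE; edgeR, adjusted p = 0.00167).

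Pdcd1 encodes PD-1, the receptor of PD-L1 and PD-L2 on activated and exhausted T cells, at chr1:94038305-94052553 (minus strand). It was the only gene of the set that fell. It measured 25.2, 38.7 and 43.8 CPM in NC sham, 20.9, 29.9 and 39.4 in NC olaparib, 17.4, 32.3 and 10.0 in OE sham, and 25.4, 55.4 and 34.9 in OE olaparib. With radiation the values were 10.6, 19.7 and 18.2 CPM in NC IR, 14.9, 16.9 and 29.5 in NC IR+olaparib, 15.5, 21.2 and 7.47 in OE IR, and 15.3, 1.04 and 4.81 in OE IR+olaparib. No irradiated tumour reached the unirradiated median of 31.1 CPM, although the ranges overlapped. The change was -1.15 ± 0.32 on the log2 scale (SE; edgeR, adjusted p = 0.00881), opposite in sign to its ligands.

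Havcr2 encodes TIM-3, an inhibitory receptor found on exhausted T cells and also on macrophages and dendritic cells, at chr11:46454931-46481255 (plus strand). Irradiated tumours ranged from 14.7 to 62.0 CPM with a median of 48.5, and unirradiated from 15.9 to 53.4 CPM with a median of 26.0. It rose by 0.65 ± 0.18 on the log2 scale (SE; edgeR, adjusted p = 0.0100). Of the 12 irradiated tumours 11 lay above the unirradiated median, the exception being the tumour that stood apart.

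Ctla4, whose product takes CD80 away from CD28, lies at chr1:60909025-60915832 (plus strand) and ranged from 1.03 to 7.98 CPM in irradiated and from 1.14 to 8.63 CPM in unirradiated tumours. Its log2 fold change was 0.39 ± 0.35 (SE; edgeR, adjusted p = 0.386). Lag3, a receptor of MHC class II on T cells (chr6:124904359-124912434, minus strand), ranged from 3.35 to 24.97 CPM against 6.89 to 36.8 CPM, with a log2 fold change of -0.40 ± 0.27 (adjusted p = 0.260). Tigit, an inhibitory receptor of T and natural killer cells for nectin-like ligands (chr16:43626137-43665125, minus strand), ranged from 1.42 to 18.4 CPM against 5.85 to 24.0 CPM, with -0.50 ± 0.30 (adjusted p = 0.181). Irradiated and unirradiated tumours overlapped in all 4 settings for these 3 receptors. Lag3 and Tigit passed, both lower, when the first OE IR+olaparib tumour was left out, with log2 fold changes of -0.68 and -0.84 and adjusted p values of 0.0237 and 0.0105.

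Per kilobase of exon, so that genes can be set beside each other, the order of median levels changed with radiation. Without radiation Tigit at 18.0 CPM per kb and Pdcd1 at 16.1 led, ahead of Havcr2 at 9.55, Lag3 at 7.95, Cd274 at 7.76 and Cd80 at 5.62. With radiation Cd274 at 20.9 CPM per kb and Havcr2 at 17.8 led, followed by Tigit at 13.8, Cd80 at 12.3, Lag3 at 8.26 and Pdcd1 at 7.97. Tnfsf4 moved from 0.345 to 2.51, Pdcd1lg2 from 0.633 to 2.66, Ido1 from 0.564 to 1.52 and Ctla4 from 1.18 to 2.00 CPM per kb.

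Within single settings, of 3 tumours against 3, few of the genes passed. In NC without olaparib 0 of 10 passed by edgeR, where 10.0% of all genes did; 3 were below an unadjusted p of 0.05, and DESeq2 called 3. The number of all genes that passed in this comparison rested on single libraries: it was 1659, but 2 without the first NC IR tumour, 3 without the third NC sham tumour and 3856 without the second OE IR+olaparib tumour, and 0 when the 6 libraries were fitted alone. In OE without olaparib 1 passed, Tnfsf4 at 3.66 ± 0.71 on the log2 scale (SE; edgeR, adjusted p = 0.0376), where 0.248% of all genes did. Under olaparib in NC 2 passed, Cd80 at 1.33 ± 0.30 (adjusted p = 0.0433) and Tnfsf4 at 2.99 ± 0.68 (adjusted p = 0.0435), where 1.46% of all genes did. Under olaparib in OE 2 passed, where 6.78% of all genes did. These were Cd80, higher at 1.40 ± 0.30 (adjusted p = 0.0252), and Pdcd1, lower at -2.45 ± 0.66 (edgeR, adjusted p = 0.0369). Fitted on their own 6 libraries, these comparisons called 0 of the 10 genes in NC and 6 in OE without olaparib, and 5 in NC and 0 in OE under olaparib. Except for NC without olaparib, the share of all genes called in these fits is not given here. The shares above come from the main fit, so these counts cannot be read against them. The same holds for the 3 genes that DESeq2 called in NC. With 1 library left out at a time, the number of all genes that passed ran from 0 to 397 in OE without olaparib, from 1 to 1733 in NC under olaparib and from 25 to 3210 in OE under olaparib.

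The separation of the 3 irradiated from the 3 unirradiated tumours differed between genes. The irradiated tumours lay above the unirradiated in 4 of the 4 settings for Cd80 and Tnfsf4, in 3 for Ido1, in 2 for Cd274 and Havcr2 (OE without olaparib and NC under olaparib) and in 1 for Pdcd1lg2 (OE without olaparib). They lay below in 2 settings for Pdcd1, NC without olaparib and OE under olaparib. Ido1 had log2 fold changes of 1.79, 1.88 and 1.75 in the first 3 settings and -0.06 ± 0.55 (SE) in OE under olaparib. Fold changes varied widely between settings for some genes: in the same order those of Pdcd1lg2 were 0.58, 3.25, 2.11 and 0.18, and those of Lag3 were -0.95, 0.63, 0.12 and -1.39.

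**Figure D2:**
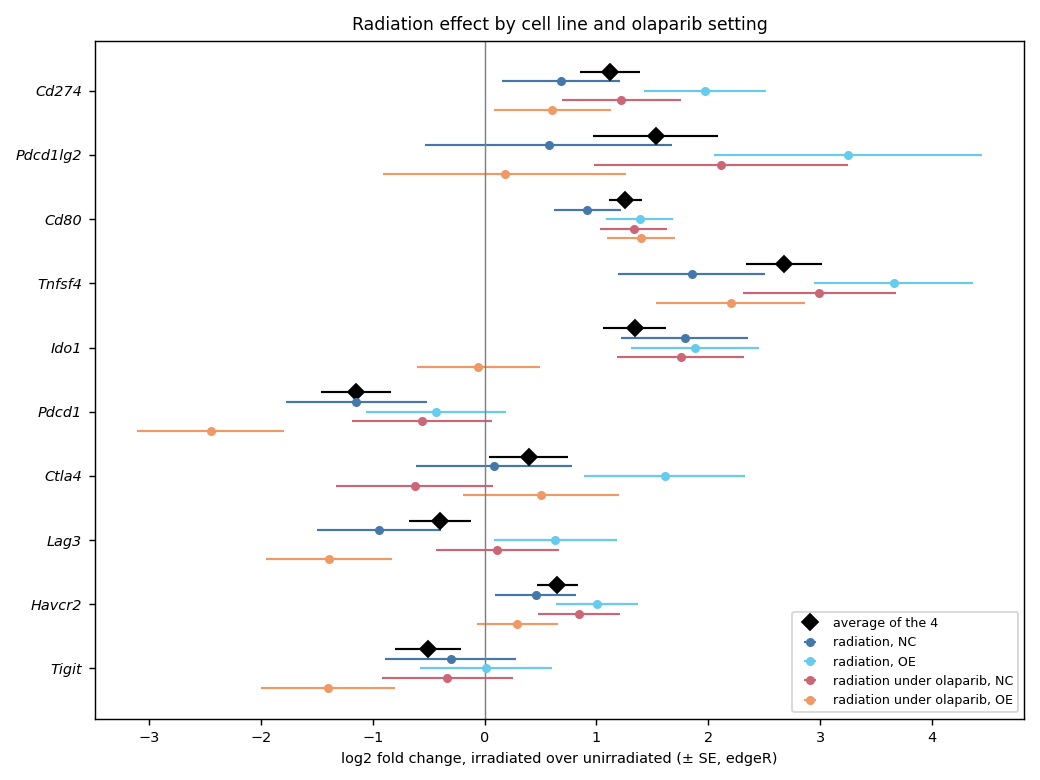
Log2 fold changes of irradiated over unirradiated tumours (x axis, ± SE, edgeR) for each gene, as the average of the 4 settings (black diamonds) and in each setting (coloured points, 3 tumours against 3). Cd80, Tnfsf4, Cd274, Pdcd1lg2 and Havcr2 are above 0 in all 4 settings. Pdcd1 is below 0 in all 4, from -2.45 in OE under olaparib to -0.44 in OE without olaparib.

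No test showed that the radiation effect on any of the 10 genes depended on cell type or drug. The effect in OE minus that in NC passed for 0 of 10 genes, where 0.00604% of all genes did, and the effect with minus without olaparib passed for 0 of 10, where 0% did; in both, 0 of 10 had an unadjusted p below 0.05, by edgeR. DESeq2 called 0 of the 10 in both, and 7 of all genes in the second, where edgeR had 588 below an unadjusted p of 0.05. The largest such difference was Ctla4, with an effect higher in OE by 1.33 ± 0.70 on the log2 scale (SE; edgeR, adjusted p = 0.493). Standard errors of 0.30 to 1.10 left wide intervals on these differences.

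Overexpression of miR-21-5p, averaged over the 4 treatments, changed 0 of the 10 genes by edgeR, where 0.453% of all genes passed, and 2 of the 10 had an unadjusted p below 0.05. Cd80 was at 0.39 ± 0.15 (SE, log2 scale; edgeR, adjusted p = 0.218) and Havcr2 at -0.44 ± 0.18 (adjusted p = 0.259). All 5 receptors had fold changes below 0, with a median of -0.52, beside a median of -0.37 for 18 T cell markers and -0.01 for all genes. Without the second OE IR+olaparib tumour, Cd80 passed as higher in OE. Olaparib, averaged over the other factors, changed 0 of the 10 genes, where 0% of all genes passed, and 1 of the 10 had an unadjusted p below 0.05: Cd274 at 0.63 ± 0.26 (edgeR, adjusted p = 0.640). DESeq2 called 0 of the 10 in both comparisons, and 1 of all genes for olaparib, where edgeR had 1270 below an unadjusted p of 0.05. Over all 8 groups at once, 3 of the 10 genes differed, Cd80, Ido1 and Tnfsf4, where 19.4% of all genes did.

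Markers of immune cells moved with radiation in opposite directions, and their part in the results above was not tested. Of 18 T cell markers 13 fell and 0 rose, with a median of -0.91; Cd3d changed by -1.34 ± 0.32 and Cd3e by -1.26 ± 0.34 on the log2 scale. The summed T cell receptor chains Cd3d, Cd3e and Cd3g ran from 9.75 to 59.2 CPM with a median of 37.2 in irradiated tumours, and from 15.7 to 173 CPM with a median of 62.8 in unirradiated. The sum of all 18 T cell markers differed less. It ran from 79.0 to 621 CPM with a median of 245 in irradiated tumours, and from 113 to 583 CPM with a median of 267 in unirradiated. Fold changes were above 0 for 2 of the 18. Thy1 alone ran from 38.1 to 533 CPM with a median of 64.6 in irradiated tumours. In unirradiated tumours it ran from 32.4 to 105 CPM with a median of 51.4. The sum therefore depends heavily on this 1 gene and is no measure of T cell content. Of 16 macrophage markers 11 rose and 1, Cx3cr1, fell, and their sum ran from 3081 to 20340 CPM with a median of 14230 in irradiated tumours, and from 5790 to 15340 CPM with a median of 7460 in unirradiated. Ptprc, which encodes the pan-leukocyte protein CD45, did not pass, with a log2 fold change of 0.17 and medians of 232 and 196 CPM. Of 14 dendritic cell markers 1, Clec10a, rose and 8 fell, among them Siglech at -4.00 ± 0.51. Of 10 neutrophil markers tested 8 rose, S100a8 at 3.73 ± 0.69, of 12 natural killer and cytotoxic markers 2 rose and 1 fell, and of 8 B cell markers none passed. Of the markers of other tissue, 2 of 7 mast cell, 2 of 10 endothelial, 4 of 10 fibroblast, 4 of 12 squamous and 9 of 12 skeletal muscle genes rose and none fell. Over all genes 21.7% rose and 17.5% fell. Summed fibroblast markers had a lower median in irradiated tumours, 5489 against 6064 CPM, as had endothelial markers, 216 against 228 CPM. The summed medians of mast cell, squamous and skeletal muscle markers were higher in irradiated tumours.

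The receptors were also set against the T cell chains within each tumour, a ratio that needs no scaling between libraries. With the 4 settings pooled, none of the 4 inhibitory receptors examined had a lower median in irradiated tumours by this ratio. Pdcd1 had a median of 46.3 reads per 100 reads of the 3 Cd3 chains in irradiated tumours and 40.8 in unirradiated, with overlapping ranges of 7.78 to 70.8 and 25.3 to 84.4. The settings differed for Pdcd1. In OE without olaparib it was at 34.07, 39.89 and 31.27 with radiation, all below the 41.55, 53.13 and 64.23 of sham. In NC without olaparib it was at 67.65, 46.14 and 46.53 with radiation and 60.49, 40.11 and 25.31 in sham. Under olaparib the ranges overlapped in both NC and OE. Ctla4 had medians of 12.4 and 4.04, and all 12 irradiated tumours lay above the unirradiated median. Lag3 had medians of 43.7 and 25.3, with 11 of 12 above, and Tigit 32.8 and 20.8, with 10 of 12 above. The ratios of the geometric means, irradiated over unirradiated, were 0.866 for Pdcd1, opposite in direction to its medians, 2.69 for Ctla4, 1.56 for Lag3 and 1.36 for Tigit. These are descriptions with no test; the 3 chains together gave as few as 393 reads in the third OE IR+olaparib tumour and 424 in the second.

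Against Ptprc, the ligands kept their difference. Tnfsf4 had medians of 1.79 reads per 100 Ptprc reads in irradiated and 0.298 in unirradiated tumours, with 12 of 12 irradiated tumours above every unirradiated one. Cd80 had medians of 19.0 and 10.9, with 11 of 12 above, and Cd274 31.4 and 14.6, with 3 of 12 above. Pdcd1 had medians of 5.63 and 15.1, and 8 of the 12 irradiated tumours lay below every unirradiated one. Lag3 had medians of 6.38 in irradiated and 8.46 in unirradiated tumours, and Tigit 4.60 and 7.77. Both were thus lower with radiation per Ptprc reads, but higher per reads of the Cd3 chains. Ctla4 had medians of 1.78 and 1.27, and Havcr2 19.2 and 12.9. Against the sum of 6 macrophage genes, the ratio of geometric means was 1.00 for Havcr2, 1.51 for Cd80, 1.46 for Cd274 and 2.10 for Pdcd1lg2. Havcr2 had medians of 0.703 reads per 100 in irradiated and 0.791 in unirradiated tumours. Irradiated tumours above every unirradiated one numbered 7 of 12 for Cd80, 1 for Cd274 and 0 for Pdcd1lg2. The third NC IR tumour had the fewest reads of these macrophage genes, 49194, and the highest ratios of Havcr2 (3.91) and Cd274 (3.87).

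**Figure D3:**
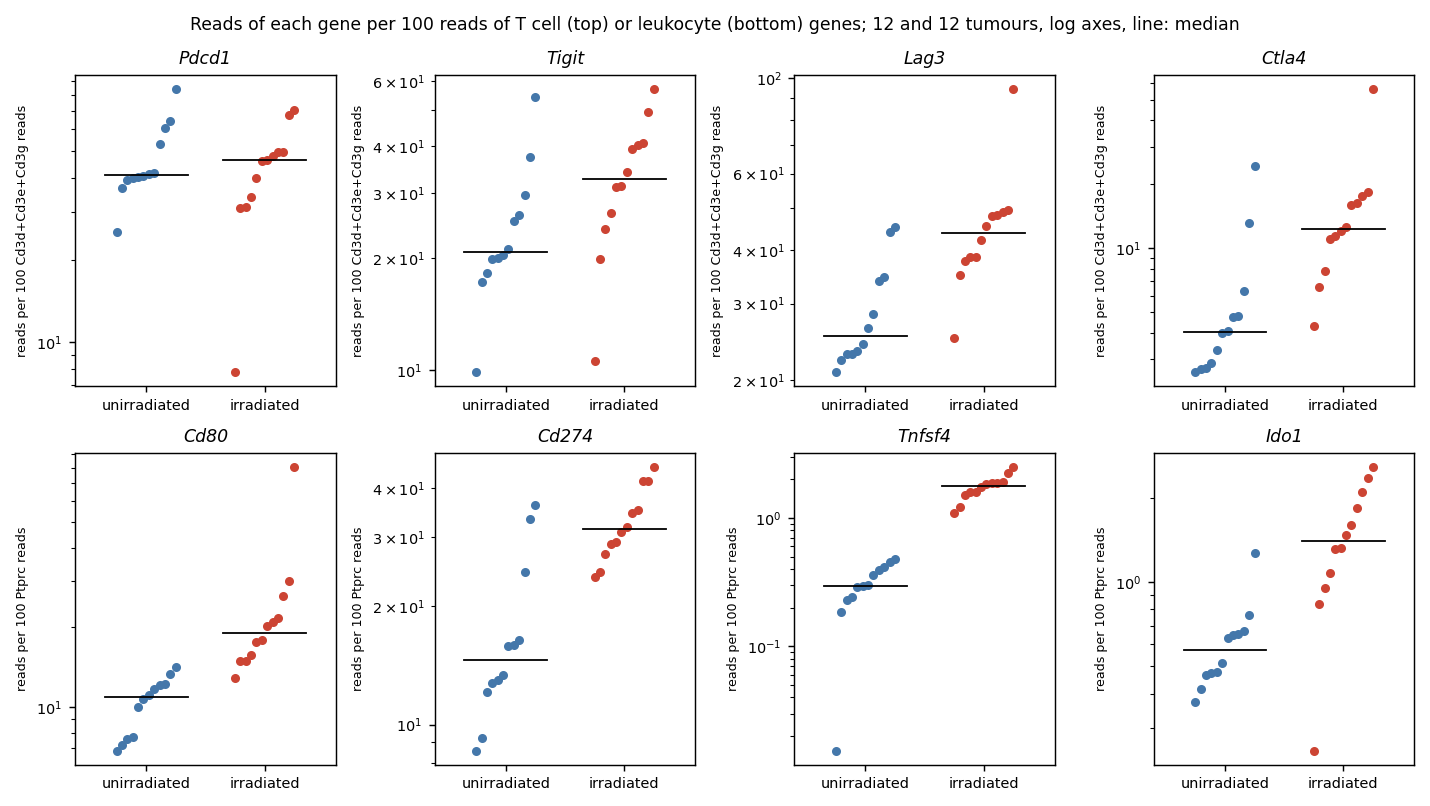
Reads of 4 receptors per 100 reads of Cd3d, Cd3e and Cd3g (top) and of Cd80, Cd274, Tnfsf4 and Ido1 per 100 reads of Ptprc (bottom), on log axes, for 12 unirradiated (blue) and 12 irradiated (red) tumours, sorted within each, with a line at the median. With the 4 settings pooled, Pdcd1 per T cell chain reads overlaps almost fully, with medians of 40.8 and 46.3, while Tnfsf4 per Ptprc reads separates fully.

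The remaining genes of the pathway are read against the 21.7% of all genes that rose and the 17.5% that fell. Of 12 further costimulatory ligands 5 rose and 0 fell, with a median of 0.45: Cd70 at 2.26 ± 0.74, Tnfsf18 at 1.37 ± 0.33, Tnfsf14 at 1.37 ± 0.31, Cd86 at 0.64 ± 0.21 and Nectin2 at 0.63 ± 0.24. Cd86 is the other ligand shared by CD28 and CTLA-4, and Tnfsf18 encodes the ligand of GITR, Cd70 that of CD27. Cd70 was scarce, at 0.158 ± 0.123 CPM against 0.0483 ± 0.0608 (SD, n = 12). Of 11 costimulatory receptors tested, Tnfrsf25 rose by 1.21 ± 0.46 and Cd27 fell by 0.92 on the log2 scale. The receptor of OX40 ligand, Tnfrsf4, was at 0.45 ± 0.26 (adjusted p = 0.176), and CD28, shared by Cd80 and Cd86, was at -0.17 ± 0.31 (edgeR, adjusted p = 0.703). Cd28, Tnfrsf4 and Nectin2, like Klrg1, Klrc1, H2-K1, Kyat1, Slc3a2 and Haao in what follows, were named after their values were seen.

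Among 15 other inhibitory receptors 4 rose and 2 fell, with a median of -0.42, a share called close to the 39.1% of all genes. Those that rose were Cd200r1, the myeloid receptor of CD200, at 1.03 ± 0.15, Sirpa, the myeloid receptor of CD47, at 0.51 ± 0.15, Ceacam1, which TIM-3 can bind, at 1.05 ± 0.15, and Klrg1 at 1.28 ± 0.44. Those that fell were Btla, an inhibitory receptor of lymphocytes, at -1.80 ± 0.47, and Klrc1, which encodes NKG2A, at -0.88 ± 0.27. Of 12 other inhibitory ligands and enzymes tested 3 rose and 0 fell: Entpd1, which breaks down extracellular ATP, at 0.78 ± 0.19, Lgals9, a ligand of TIM-3, at 0.32 ± 0.07, and Ido2 at 1.01 ± 0.27.

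Of 25 interferon gamma response genes tested 5 rose and 0 fell, with a median of 0.30, a share higher that is close to the 21.7% of all genes. Gbp5, an interferon-induced GTPase, rose by 0.99 ± 0.29, H2-D1 by 0.43 ± 0.10, H2-K1 by 0.33 ± 0.12, Irf8 by 0.51 ± 0.18 and B2m by 0.36 ± 0.13 on the log2 scale. Of 11 other kynurenine pathway genes tested 3 rose and 4 fell. Ido2, Kyat1 (0.87 ± 0.25) and Slc3a2 (0.31 ± 0.10) rose. Slc7a5, a carrier of tryptophan into cells, was at -1.05 ± 0.20, Haao at -0.90 ± 0.32, Kyat3 at -0.76 ± 0.10 and Afmid, which acts directly after IDO1, at -0.50 ± 0.14. Of 6 regulatory T cell markers Il2ra rose by 0.97 ± 0.33, and Foxp3, their defining factor, was at -0.78 ± 0.33 (edgeR, adjusted p = 0.0639). Gzma and Gzmb, proteases of cytotoxic cells, rose by 1.44 ± 0.40 and 1.17 ± 0.39, and Ccl5 was at -0.94 ± 0.24.

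**Figure D4:**
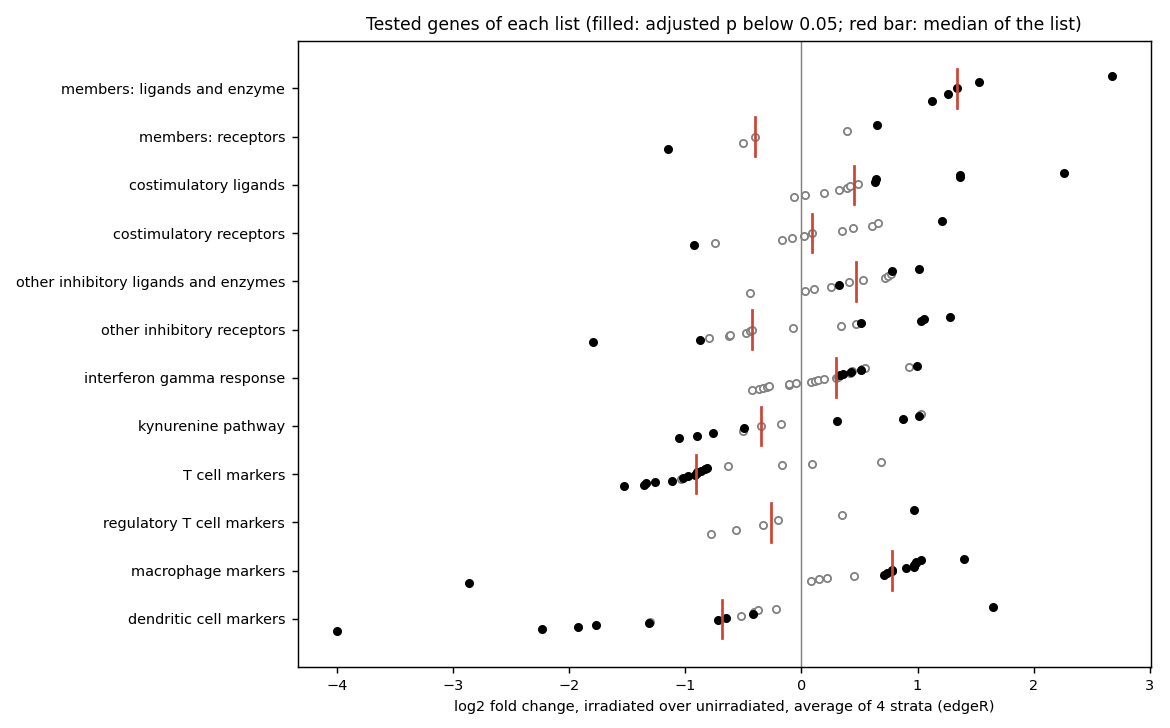
Log2 fold change of irradiated over unirradiated tumours (x axis, average of the 4 settings) for each tested gene of each list, filled where the adjusted p is below 0.05, with a red bar at the list's median. The 4 ligands and Ido1 (labelled members: ligands and enzyme) have a median of 1.34 and T cell markers one of -0.91.

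Within groups, 3 of the receptors varied together, as did the ligands of PD-1. Over the 24 deviations of log2 CPM from the group means, which share library, scaling and cell makeup, Pdcd1 and Tigit had a Pearson r of 0.974, Lag3 and Tigit 0.905, and Pdcd1 and Lag3 0.874. Cd274 and Pdcd1lg2, both on chromosome 19, had 0.856. Cd80 had -0.01 with Cd274 and -0.18 with Ctla4. Without the second OE IR+olaparib tumour the first 4 values were 0.967, 0.902, 0.873 and 0.855. Those of Havcr2 with Pdcd1, Tigit and Lag3 dropped from 0.799, 0.794 and 0.779 to 0.71, 0.718 and 0.757.

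**Figure D5:**
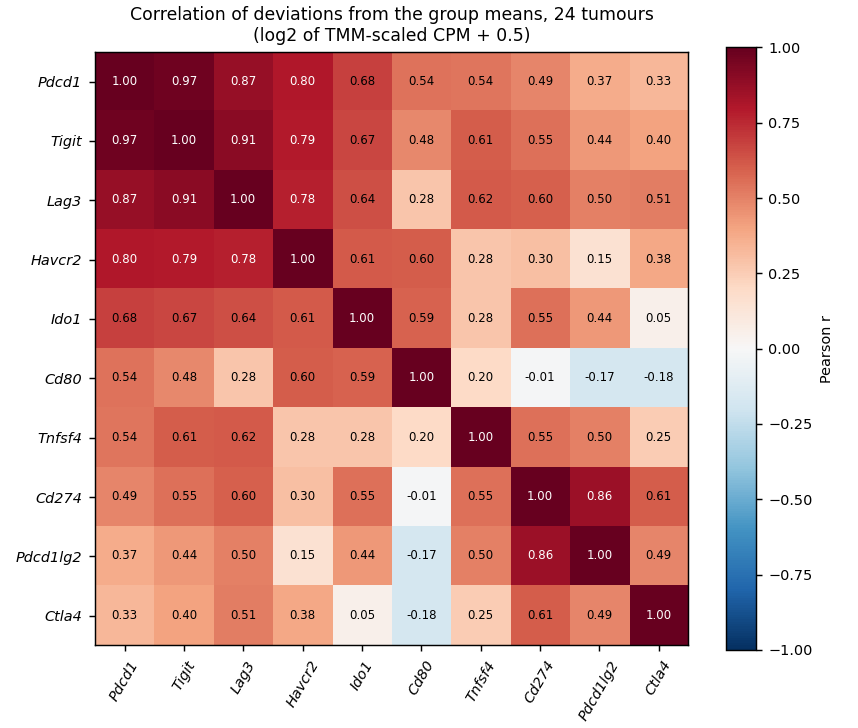
Pearson correlations among the 10 genes over 24 deviations of log2(TMM-scaled CPM + 0.5) from the group means, with colour from -1 to 1. Pdcd1, Tigit, Lag3 and Havcr2 form a block with values of 0.78 to 0.97, and Cd274 and Pdcd1lg2 a pair at 0.86.

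By the same measure, the genes most like each member were named from all tested genes with a mean of at least 1 CPM. For Pdcd1, beside Tigit, they were Cd8a (0.953), the co-receptor chain of cytotoxic T cells, and Ptpn22 (0.921), a phosphatase of T cell receptor signalling, and both also followed Tigit, at 0.935 and 0.928. For Lag3 they were Klrd1 (0.932), Tox (0.920) and Gimap3 (0.916). For Pdcd1lg2 they were Ifng (0.929), which encodes interferon gamma, Bcl2l14 (0.926) and Akna (0.905). For Cd274 they were Acod1 (0.905), the itaconate-producing enzyme of activated macrophages, Il12rb2 (0.903) and the interferon-induced GTPase Tgtp1 (0.902).

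For Tnfsf4 the nearest was Ptprc itself at 0.804, then Tlr12 (0.793) and Pik3cg (0.787). For Ctla4 they were Mta3 (0.836), Fam107b (0.828) and Abcc5 (0.803), and for Havcr2 Plekhn1 (0.904), Qrfp (0.875) and Mcub (0.867). Cd80 was nearest to Mst1 (0.907), Serpini1 (0.895) and Crip2 (0.859), and Ido1 to Gstt4 (0.887), Leprotl1 (0.867) and Ly6e (0.861). Those of Cd80 dropped most without the second OE IR+olaparib tumour, to 0.850, 0.831 and 0.774.

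Restricted to the 16 tumours whose written labels and code name the same radiation setting, 8 irradiated and 8 not, 5 of the 10 genes passed, where 15.7% of the genes tested did. These were Cd274, Cd80, Ido1, Pdcd1lg2 and Tnfsf4, all higher. OE IR and OE olaparib kept 1 tumour each, so both OE settings rest on a single library on 1 side. Havcr2 was at 0.69 ± 0.29 (SE; edgeR, adjusted p = 0.122) and Pdcd1 at -0.85 ± 0.48 (adjusted p = 0.232). Grouped by the written labels over all 24 tumours, Cd274 had a log2 fold change of 0.89 ± 0.25 (adjusted p = 0.0583), Tnfsf4 1.10 ± 0.44 (adjusted p = 0.107), Cd80 0.15 ± 0.18 (adjusted p = 0.604) and Pdcd1 0.09 ± 0.40 (edgeR, adjusted p = 0.900).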

How the data were processed

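Whole-tumour RNA was extracted with TRIzol and made into libraries with the VAHTS Universal V5 kit, per the labels' protocols. The deposited values are raw gene counts; fastp, HISAT2, HTSeq and the build mm10 are named in the submitters' processing notes, with no versions. Strand setting and annotation are not given in the sources used here. All columns of the table belong to the 24 tumours.

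Counts were tested with edgeR 4.0.16 (R 4.3.3): TMM scaling, filterByExpr by group, a mean per group over 24 libraries, and the quasi-likelihood F-test with Benjamini-Hochberg adjustment over 16560 genes at 0.05. SE is the absolute log2 fold change over the square root of F. The test was also run on counts simulated with the spread estimated from these data. Far fewer genes were changed there than were called here, so nothing is concluded from that run. Replicate libraries differed by more than sampling noise. Each p-value sets a group difference against the spread between libraries of the same group, which may include technical variation. The members and lists were chosen with earlier results of these data known. All members were named, and up to 4 genes of each other list with the smallest p for radiation; the genes most alike are the 3 with the highest correlation. Ratios used raw counts; correlations used log2(CPM + 0.5). Exon positions and 3′ UTRs came from GENCODE M21 on mm10. Alternatives were another scaling, DESeq2 1.42.0, no filter, additive factors, the compared groups alone, the written labels, the tumours with agreeing radiation labels, each library left out and, added after seeing the data, 3 libraries of unlike composition left out.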

Additional observations from a re-analysis of the deposited data

How the results depend on the processing

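For radiation averaged over settings, 6 to 8 of the 10 genes passed when 1 library was left out. Cd274, Cd80, Havcr2, Ido1, Pdcd1 and Tnfsf4 passed in all 24 such fits, and Pdcd1lg2 in 11. The counts were 7 with DESeq2 size factors, 7 by DESeq2's own test and 7 without the filter. They were 6 with additive factors and 6 without the third NC sham, first NC IR and second OE IR+olaparib tumours, an alternative chosen after seeing the data; Pdcd1lg2 was lost in both, at adjusted p values of 0.062 and 0.0772. Grouped by the written labels the counts were 0 for the average, 0 in OE, 0 under olaparib in NC and 0 under olaparib in OE, and the sign turned for Pdcd1 (0.088), Lag3 (0.38) and Tigit (0.28). On the compared groups alone, the counts were 6 in OE, 5 under olaparib in NC and 0 under olaparib in OE. Without the filter, 0 passed under olaparib in NC. DESeq2's test called 3 in NC, 5 in OE and 7 for any difference among groups. With 1 library left out, counts ran from 0 to 3 in NC, 0 to 3 in OE, 0 to 3 under olaparib in NC, 0 to 4 under olaparib in OE, 0 to 1 for OE against NC and 2 to 7 for any difference; both interactions and olaparib stayed at 0 to 0. The counts in this paragraph stand without the share of all genes called in the same fit. They show how the calls moved between fits, and not how the 10 genes compare with all genes. Except where fewer genes or samples were fitted, the cause of these changes was not tested. Depth limits Tnfsf4 without radiation, at 1 to 55 reads. No paired analysis was possible because the labels give the groups no shared replicate numbers.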
